A study of Mus musculus with 6 samples.

Results

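The genes described here are 9 that were bright on the wild-type temporal array and dim on the temporal array labelled knockout: Mia, Itga9, Rhoj, Rtn1, Spon1, Noxo1, Trub2, Aatk and Iqgap2. They were chosen by their signals on those arrays, high on the first and low on the second, as candidate genes of the lacrimal gland bud outside the collagen, Sox and heparan sulfate families. They are 9 of the 19057 genes with a symbol on the array and have 23 of its 45281 probes. All 9 were among the 11147 genes with a probe detected on at least 2 of the 6 arrays, and all 9 also had a probe detected on at least 2 of the 4 nasal and dorsal arrays. Every value from the temporal arrays is therefore given as a description without a test. By the stated rule the nasal and dorsal arrays did not enter the choice of the genes. The probe standing for a gene was the brightest over all 6 arrays, the temporal ones included. The nasal and dorsal arrays also share the chip, and by the design text the embryos, with the temporal arrays of their genotype, and are not independent of the choice.

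The study measured the conjunctival epithelium, a mucosal layer between eyelid and eyeball, in E14.5 mouse embryos of mixed FVB and 129 background. Nasal, temporal and dorsal epithelium was captured by laser microdissection from embryos that were wild type, or that carried floxed Sox9 alleles (Sox9 fx/fx) with the Le-Cre driver and are labelled Sox9-/- and KO. Le-Cre is active in surface ectoderm, and cells of other origin in such an embryo keep Sox9, and the labels do not say whether the wild-type embryos carried Le-Cre. Each combination of genotype and region had 1 array, hybridised with cDNA pooled by region from the 3 embryos of a genotype according to the design text. The extraction protocol speaks instead of prospective lens tissue and of a single embryo, so the number of embryos behind an array is not settled. Where the arrays of a genotype share embryos, p-values taken over regions understate how much embryos vary. All 6 arrays lay on a common chip, knockout and wild type on separate runs of positions, so that genotype and position cannot be told apart.

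Between 39.8% and 45.6% of probes were detected on an array, with a median of 43 beads behind a probe. Sox9 itself had normalized log2 intensities of 10.01, 8.29 and 10.35 on the wild-type temporal, nasal and dorsal arrays and 10.06, 10.21 and 9.85 on those labelled knockout. The wild-type nasal array was the lowest of the 6, and the knockout label is thus not borne out by this probe. Its place in relation to the floxed exons is unknown, so the label is kept only as a name. The epithelial markers Cdh1, Epcam, Krt5, Krt14, Krt15, Krt8, Krt18, Trp63 and Pax6 were detected on all 6 arrays, and Krt13, a keratin of mature conjunctiva, on 0.

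The lacrimal gland starts as a bud that grows from the temporal conjunctival epithelium into the neural crest mesenchyme around it, under the influence of fibroblast growth factor signals. Sox9 and Sox10 are transcription factors of that bud, and Sox9 is also the main factor of cartilage, where it drives collagen genes and Mia. The 9 genes are otherwise a mixed group: secreted proteins (Mia, Spon1), an integrin subunit (Itga9), regulators of the cytoskeleton (Rhoj, Iqgap2), a kinase (Aatk), a protein of the endoplasmic reticulum (Rtn1), an oxidase subunit (Noxo1) and an enzyme that modifies RNA (Trub2).

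The promoters of Mia, Rhoj and Rtn1 are shown because these genes peaked on the wild-type temporal array and differ in how often they hold the core words that Sox proteins bind. Each is 300 bases of RefSeq sequence (GRCm38.p6), from 250 bases before to 50 after a start site, written on the strand of the gene. Capitals mark ACAATG or ACAAAG, read on either strand (CATTGT and CTTTGT on the other).
Mia, chr7:27181100-27181399, minus strand, no match: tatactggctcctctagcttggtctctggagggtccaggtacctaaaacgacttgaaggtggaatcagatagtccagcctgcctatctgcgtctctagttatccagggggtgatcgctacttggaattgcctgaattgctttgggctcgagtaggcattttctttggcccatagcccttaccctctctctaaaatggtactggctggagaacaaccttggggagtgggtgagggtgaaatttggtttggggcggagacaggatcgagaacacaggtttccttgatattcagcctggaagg
Rhoj, chr12:75308063-75308362, plus strand, 1 match: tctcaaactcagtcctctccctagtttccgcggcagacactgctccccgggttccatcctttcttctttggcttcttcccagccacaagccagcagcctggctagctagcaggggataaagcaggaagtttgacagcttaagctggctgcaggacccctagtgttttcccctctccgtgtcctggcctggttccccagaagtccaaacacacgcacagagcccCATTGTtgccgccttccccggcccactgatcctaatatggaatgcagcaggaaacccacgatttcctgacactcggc
Rtn1, chr12:72235697-72235996, minus strand, 3 matches: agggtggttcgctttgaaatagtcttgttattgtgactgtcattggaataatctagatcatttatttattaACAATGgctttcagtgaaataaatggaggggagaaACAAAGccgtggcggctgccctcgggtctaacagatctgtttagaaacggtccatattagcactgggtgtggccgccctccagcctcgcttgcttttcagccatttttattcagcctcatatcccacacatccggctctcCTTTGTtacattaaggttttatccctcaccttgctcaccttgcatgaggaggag

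Of the 9 genes, 8 had at least 1 promoter in the table, 13 promoters in all, and Spon1 had none there. A word was found in 5 of the 13, belonging to 3 of the 8 genes (Rhoj, Rtn1 and Aatk), against 28.6% of all 32851 promoters and 31.7% of all genes. The Aatk windows from bases 120047096 and 120047103 overlap and hold the same matches, which are thus counted in both. The Rhoj word starts at base 224 of the printed window and those of Rtn1 at bases 72, 107 and 247. The other 2 start sites of Rtn1 and the promoters of Mia, Itga9, Noxo1, Trub2 and Iqgap2 held none. The share is near that of all promoters. A match is a run of letters, not a binding site, and a window without one says nothing of Sox proteins acting elsewhere at the gene.

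Mia encodes a small secreted protein known from cartilage and melanoma cells. Its brighter probe (ILMN_2777087) read 380.7 intensity units on the wild-type temporal array, 101.3 on wild-type nasal, 88.2 on wild-type dorsal, and 87.5, 86.2 and 103.7 on the temporal, nasal and dorsal arrays labelled knockout. The wild-type temporal array thus stood alone, and the other 5 lay close together near the detection limit. After normalization the wild-type temporal level was 8.35 on the log2 scale, 6.9-fold above the next array, and the difference between the temporal arrays (labelled knockout minus wild type) was -3.77 (bead SE 0.12), a 13.7-fold difference. The second probe (ILMN_2880657) gave at least an 11.5-fold difference in temporal, as it was not detected on the array labelled knockout. In nasal epithelium the brighter probe had a difference of -0.93 (bead SE 0.19) and the second one of 0.01 (bead SE 0.18). In dorsal both probes were higher on the array labelled knockout, by 0.46 (bead SE 0.15) and 0.28 (bead SE 0.20), the second within 2 bead SE.

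Spon1 encodes F-spondin, a secreted matrix protein first known from the floor plate of the neural tube. Its single probe (ILMN_2665535) read 286.3 units on the wild-type temporal array, 89.0 on wild-type nasal and 87.5 on wild-type dorsal, and 107.4, 118.0 and 77.3 on the temporal, nasal and dorsal arrays labelled knockout. It differed from Mia in that the arrays next in order were the nasal and temporal ones labelled knockout, not wild type, and it was not detected on the dorsal array labelled knockout. The temporal difference was -2.51 (bead SE 0.14, 5.7-fold). In nasal epithelium the sign was opposite, with 0.73 (bead SE 0.16), and in dorsal it was at least 1.27-fold lower on the array labelled knockout.

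Itga9 encodes the integrin alpha 9 subunit, which pairs with the beta 1 subunit (Itgb1) and binds tenascin C, osteopontin and other matrix ligands. It was the brightest of the 9, with 1231.9 units (ILMN_1242427) on the wild-type temporal array against 229.2 on wild-type nasal, 211.7 on wild-type dorsal, and 224.2, 204.7 and 289.0 on the temporal, nasal and dorsal arrays labelled knockout. The 5 lower arrays lay within 0.71 log2 units of each other, well above detection, and the wild-type temporal array was 5.43-fold above the next. The temporal difference was -3.01 (bead SE 0.07, 8.06-fold), and a second probe (ILMN_2749529) gave -2.73. That second probe also had -1.08 in nasal and -0.97 in dorsal, whereas the brighter gave -0.57 and 0.27. The remaining probe was not detected on any array.

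Rhoj encodes a small GTPase of the Cdc42 group, known from endothelial cells, where it acts on focal adhesions and the actin cytoskeleton. A single probe (ILMN_2653567) carried the pattern, with 501.6 units on wild-type temporal, 132.8 on wild-type nasal and 91.8 on wild-type dorsal, and 86.0, 85.1 and 85.4 on the temporal, nasal and dorsal arrays labelled knockout. The wild-type arrays fell into the order temporal, nasal, dorsal with gaps beyond 2 bead SE, and the 3 labelled knockout did not differ from each other beyond it. Only the dorsal of these was called detected. Rhoj was at least 19.2-fold lower in temporal and at least 3.53-fold lower in nasal on the arrays labelled knockout, and 1.37-fold lower in dorsal. The other 2 probes were dim, 1 of them detected on the temporal array labelled knockout alone and 1 on none.

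Iqgap2, a scaffold protein that binds Cdc42 and Rac1 and is best known from liver, followed another course. Its brightest probe (ILMN_1218051) read 370.6, 258.1 and 183.0 units on the wild-type temporal, nasal and dorsal arrays, and 80.8, 101.1 and 205.8 on those labelled knockout. The temporal and nasal arrays labelled knockout were low, and the dorsal one was level with wild-type dorsal (log2 difference -0.07, bead SE 0.10). It was at least 13.7-fold lower in temporal and 5.75-fold lower in nasal. The other probes did not share this: ILMN_2908846, detected on all 6 arrays, had 0.31 (bead SE 0.17) in temporal and -0.06 in nasal, and ILMN_2427307 was at least 1.49-fold lower in temporal. The result for Iqgap2 thus rests on 1 of its 3 probes.

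Aatk encodes a kinase of the LMTK family, known from neurons and from cells undergoing apoptosis. Its single probe (ILMN_1231439) read 456.1 units on wild-type temporal, 110.9 on wild-type nasal and 200.3 on wild-type dorsal, and 107.8, 85.6 and 156.5 on the temporal, nasal and dorsal arrays labelled knockout. It was lower on the array labelled knockout in each region, with log2 differences of -3.28 (bead SE 0.13) in temporal, -1.28 (bead SE 0.17) in nasal and -0.88 (bead SE 0.11) in dorsal. Within both genotypes dorsal was brighter than nasal, and each step in the order of the 6 arrays was beyond 2 bead SE.

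Rtn1 encodes a reticulon, a membrane protein that shapes the endoplasmic reticulum and is known from neurons and neuroendocrine cells. Its brightest probe (ILMN_3115490) read 187.9 units on wild-type temporal and between 83.7 and 90.0 on the other 5 arrays, none of which differed from its neighbour in the order beyond 2 bead SE. This was the flattest profile of the 9 outside wild-type temporal. The temporal difference was -2.36 (bead SE 0.22, 5.15-fold), and 3 more of its 5 probes gave at least 5.52-fold (ILMN_2758070), 4.23-fold (ILMN_1235203) and 2.56-fold (ILMN_1254697) lower values on the temporal array labelled knockout. With 4 of 5 probes alike, and 2 transcripts among them in the platform annotation, Rtn1 was the member measured by most probes. In nasal it was at least 1.23-fold lower, and in dorsal -0.04 (bead SE 0.21).

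Noxo1 encodes the organizer subunit that activates the NADPH oxidases Nox1 and Nox3. Its brighter probe (ILMN_2683856) read 333.9, 230.5 and 119.9 units on the wild-type temporal, nasal and dorsal arrays and 78.3, 78.6 and 86.0 on those labelled knockout. All 3 wild-type arrays were above all 3 labelled knockout, of which only the dorsal was called detected. It was at least 12.2-fold lower in temporal and at least 8.18-fold lower in nasal on the array labelled knockout, and 2.72-fold lower in dorsal (log2 difference -1.45, bead SE 0.15). Wild-type temporal was only 1.44-fold above wild-type nasal, so that the description as highest in wild-type temporal is slight for Noxo1. Its dimmer probe (ILMN_1240610) reached at most 83.4 units, detected on the wild-type temporal and dorsal arrays, and had no fold above its bound in temporal.

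Trub2 encodes a pseudouridine synthase known to modify RNA in mitochondria. Its brightest probe (ILMN_2983686) read 685.6, 429.8 and 398.6 units on the wild-type temporal, nasal and dorsal arrays, and 93.8, 372.3 and 569.1 on the temporal, nasal and dorsal arrays labelled knockout. Here 1 low array stood apart, the temporal one labelled knockout, at 3.23 log2 units below the next. Wild-type temporal was only 1.31-fold above the next array, the dorsal one labelled knockout. The temporal difference was -4.41 (bead SE 0.11, 21.2-fold), but of its other 2 probes 1 near the detection limit was at least 1.10-fold lower in temporal and 1 was not detected on either temporal array. Trub2 was thus a gene lowest on 1 array rather than highest on 1, and it rests on 1 of 3 probes.

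**Figure D1:**
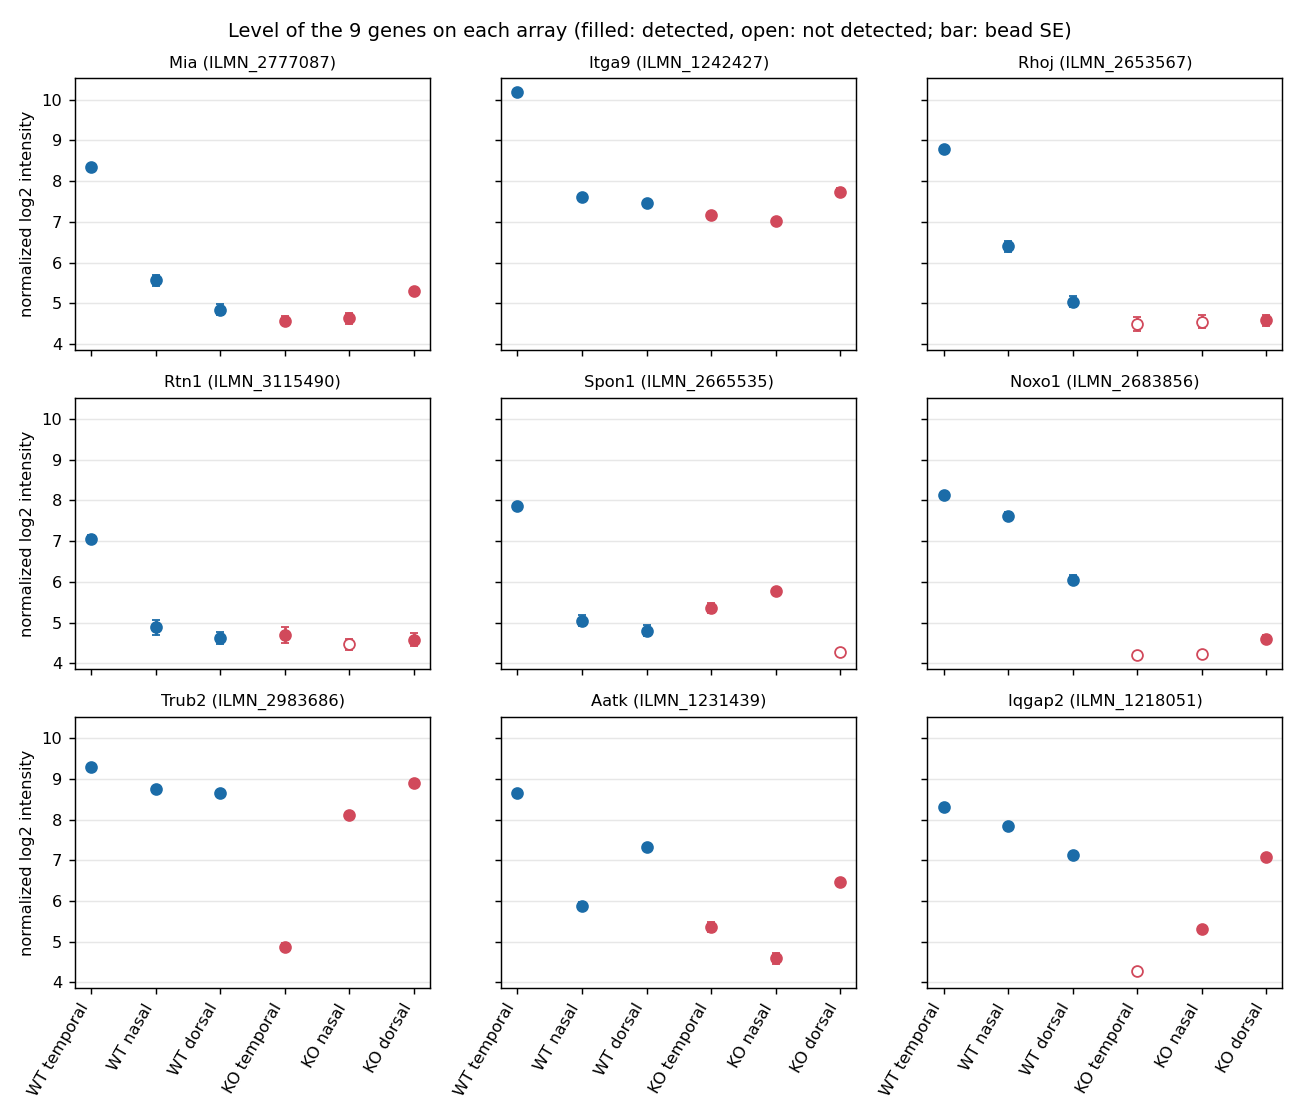
Normalized log2 intensity of the brightest probe of each of the 9 genes (vertical axis) on the 6 arrays (horizontal axis), with wild type in blue and labelled knockout in red. Bars are the bead SE, and open points were not detected. Mia, Itga9, Rtn1 and Spon1 stood out on the wild-type temporal array alone, and Rhoj was highest there, with wild-type nasal next. Noxo1 was low on all 3 arrays labelled knockout, and Trub2 was low on the temporal array labelled knockout alone.

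As a group, all 9 were highest on the wild-type temporal array, as were 14.9% of the genes tested, and 9 of 9 were at least 2-fold lower on the temporal array labelled knockout, against 8.31% of 10460 genes detected on at least 1 of the pair. The choice of the genes enters both of these counts. The lowest of the 6 arrays was the temporal one labelled knockout for 5 of the 9 (20.6% of all genes) and another knockout-labelled array for the other 4. The wild-type temporal array was at least 2-fold above the next array for 6 of the 9 (Mia, Itga9, Rhoj, Rtn1, Spon1 and Aatk), against 0.458% of all genes. Within wild type, temporal was at least 2-fold above nasal for these 6 (5.47% of genes) and above dorsal for 8, all but Trub2 (3.04% of genes). The choice of a bright wild-type temporal array enters all these counts, and nothing is read from them.

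Of the 23 probes, 19 were detected on at least 1 temporal array. Of these 14 were at least 2-fold lower on the array labelled knockout, against 7.09% of 22716 such probes, and 2 were higher, against 47.8%. The choice of the genes enters both counts. In 3 of the genes, Mia, Itga9 and Rtn1, more than 1 probe showed a 2-fold difference. For Rhoj, Noxo1, Trub2 and Iqgap2 a single probe of several did, and for Spon1 and Aatk the array held a single probe. The platform annotation assigns all probes of Iqgap2 to a single transcript, and likewise those of Noxo1 and of Trub2. The disagreement of probes in these genes is thus not one between annotated transcripts. The probes of Rhoj are each assigned to a different transcript.

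**Figure D2:**
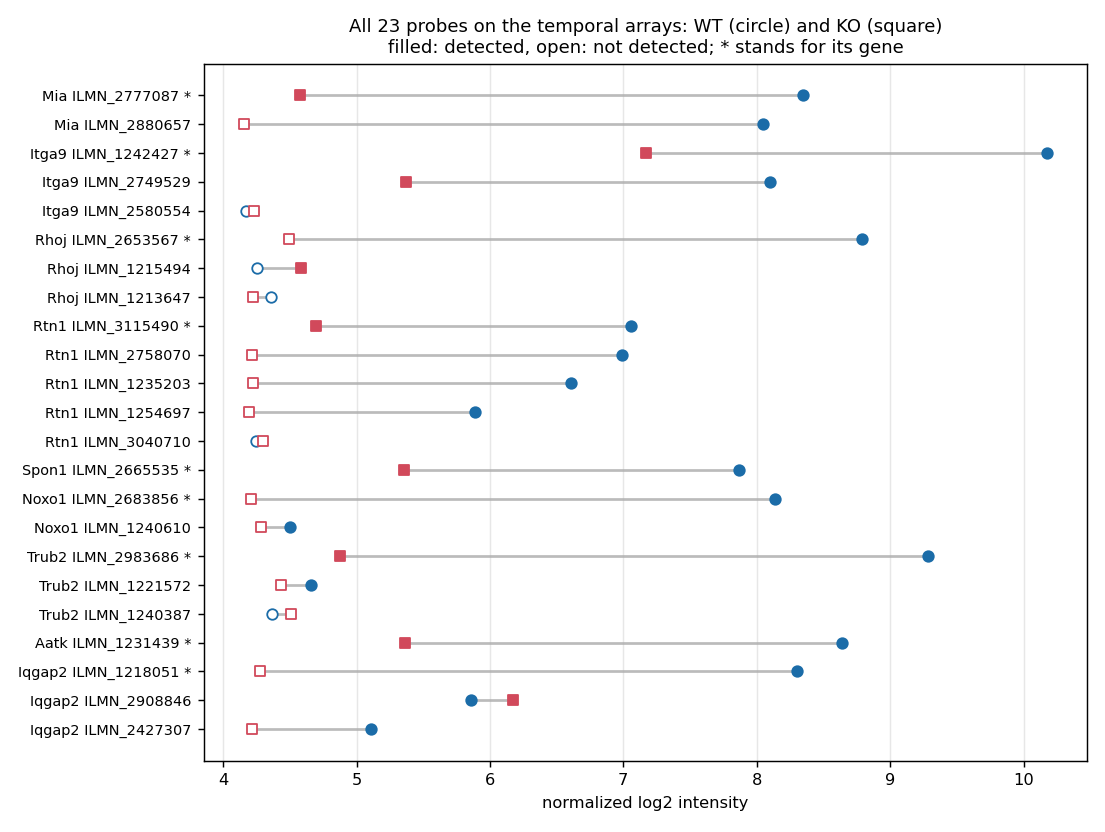
Normalized log2 intensity (horizontal axis) of all 23 probes on the wild-type temporal array (blue circles) and the temporal array labelled knockout (red squares), with open symbols for probes not detected. Long lines mark the 14 probes at least 2-fold lower on the array labelled knockout, and ILMN_2908846 of Iqgap2 is the probe that was detected on both and higher there.

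Whether the genes differed by genotype outside the temporal epithelium, where they were not chosen, was tested over the nasal and dorsal arrays. Noxo1 was lowest there relative to wild type, with mean log2 levels of 4.42 on the 2 arrays labelled knockout and 6.83 on the 2 of wild type, a difference of -2.41 (SE 0.55, 95% interval -3.86 to -0.97). Noxo1 was not detected on the nasal array labelled knockout, so this value rests on the background level, and it was -1.45 with an offset of 50 and -1.16 without background correction. Aatk had -1.08 (SE 0.32, interval -1.93 to -0.23), Rhoj -1.15 (SE 0.45, interval -2.34 to 0.03) and Iqgap2 -1.29 (SE 0.65, interval -3.02 to 0.43). None passed the threshold of 0.05, with adjusted p = 0.922 for each of these 4 in limma, and neither did any other gene: 0 of 11147 (0%) were called. Unadjusted limma p-values under 0.05 were found for 520 genes, 263 of them lower (2.36%). Of the 9 genes 2 were among those lower, Noxo1 and Aatk.

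The remaining genes had values nearer to 0 in the same fit. Mia had -0.23 (SE 0.45, interval -1.42 to 0.95), Rtn1 -0.23 (SE 0.32, interval -1.08 to 0.62), Trub2 -0.21 (SE 0.37, interval -1.19 to 0.78), Itga9 -0.15 (SE 0.37, interval -1.12 to 0.81) and Spon1 0.10 (SE 0.43, interval -1.03 to 1.22). Their adjusted p-values in limma ran from 0.97 to 0.991. The value of Itga9 depended on the probe: with the mean of its probes it was -0.59 (SE 0.29, adjusted p = 0.93 in limma). The brighter Itga9 probe has no transcript in the platform annotation. The second, ILMN_2749529, has one and had differences of -1.08 in nasal and -0.97 in dorsal, without a test. Each of the 95% intervals of these genes takes in 0 as well as a level 2-fold lower, so the arrays do not show that these genes were alike in the genotypes. The median over the 9 was -0.23, beside -0.01 over all genes tested.

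Region by region, 4 of the 9 genes were at least 2-fold lower on the nasal array labelled knockout (Noxo1, Iqgap2, Rhoj and Aatk), against 10.5% of 10320 genes, and 1 on the dorsal array, Noxo1, against 3.35% of 10553 genes. In nasal 8 of the 9 were lower by any amount, all but Spon1, against 51.9% of genes, and in dorsal 6, against 50.1%, a share near the background. With 1 array per genotype and region these are values without a test. Noxo1 alone of the 9 was at least 2-fold lower in both regions, as were 0.664% of all genes. The median difference over the 9 was -0.93 in nasal and -0.07 in dorsal, beside -0.02 and 0.00 over all genes. Both wild-type arrays lay above both labelled knockout, over nasal and dorsal, for 4 of the 9 (Rhoj, Rtn1, Noxo1 and Iqgap2) and for 17.1% of all genes. In Rtn1 and Iqgap2 the gap between the groups was within 2 bead SE.

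**Figure D3:**
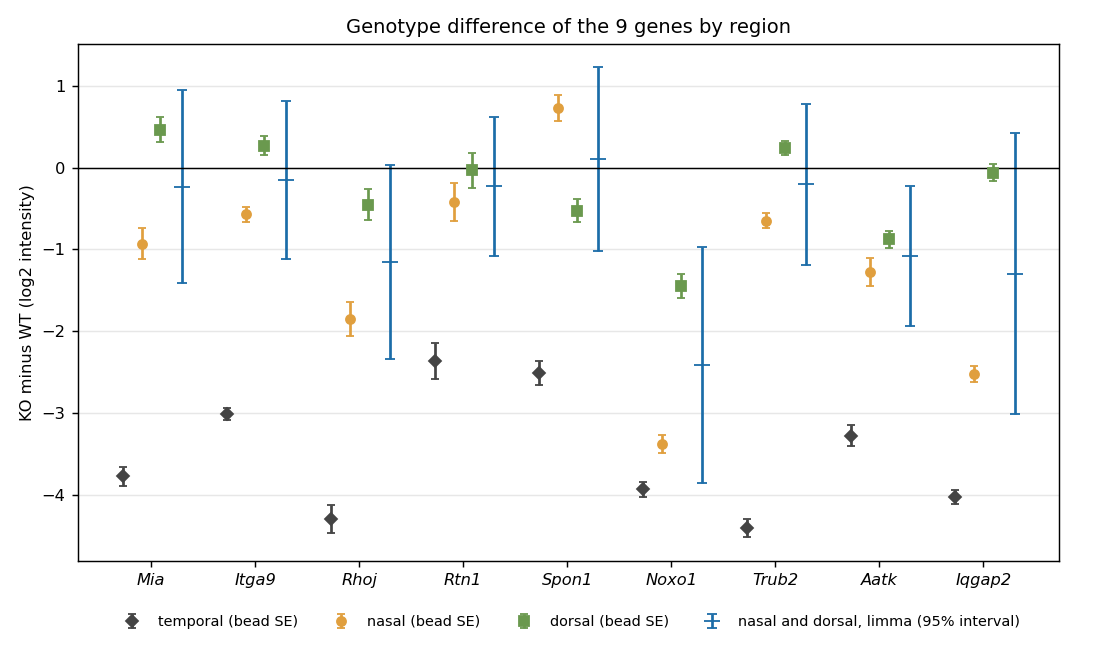
Log2 difference, labelled knockout minus wild type, for the brightest probe of each of the 9 genes (vertical axis) in temporal (diamonds), nasal (circles) and dorsal (squares) epithelium with bead SE, and the limma estimate over nasal and dorsal with its 95% interval (blue). All temporal values lie below -2, by the choice of the genes, and of the blue intervals those of Noxo1 and Aatk lie below 0 before adjustment for the number of genes tested.

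Scaling affected this comparison. When each array was shifted to a common median in place of quantile normalization, the share of lower genes among those differing at least 2-fold moved from 49.2% to 34.9% in temporal, from 49.9% to 35% in nasal and from 51.5% to 22.2% in dorsal. The median of all genes over nasal and dorsal then stood at 0.16. Relative to that median Noxo1 had -2.39, Iqgap2 -1.25, Rhoj -1.23 and Aatk -1.05, and Itga9 and Trub2 had -0.01 each. The counts of members at least 2-fold lower were 9 in temporal, 4 in nasal and 1 in dorsal under both scalings.

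Nasal and dorsal epithelium were compared in the same fit, since nasal epithelium also forms a gland, the Harderian, and dorsal forms none. Aatk was lower in nasal than in dorsal, with mean log2 levels of 5.23 and 6.90, a difference of -1.67 (SE 0.32, interval -2.52 to -0.81) and an adjusted p = 0.765 in limma. It did not pass, nor did any of the 11147 genes (0%), while 714 had unadjusted limma p-values under 0.05. Of these 395 were lower in nasal (3.54%), and Aatk was the 1 member among them. Spon1 had 0.87 (SE 0.43), Rhoj 0.67 (SE 0.45) and Noxo1 0.60 (SE 0.55), and the other genes lay between -0.53 and 0.07. In wild type alone Rhoj was 1.37 and Noxo1 1.57 log2 units higher in nasal than in dorsal, beyond 2 bead SE, whereas on the arrays labelled knockout both were near the detection limit in both regions (-0.03 and -0.37).

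The authors' deposited table of processed values placed the arrays in the same way. In the authors' deposited table Mia read 303.0 on wild-type temporal and 8.90 on the temporal array labelled knockout, Itga9 1139.9 and 127.4, Rhoj 416.7 and 7.04, and Aatk 376.4 and 27.2. In the authors' deposited table Noxo1 read 261.1, 176.5 and 51.5 on the wild-type temporal, nasal and dorsal arrays and -0.52, 0.26 and 9.57 on those labelled knockout. No fold is given for values at or below 0.

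Relatives and partners of the 9 genes were examined from lists of family members, and in the fit over nasal and dorsal 0 of these genes passed at an adjusted p under 0.05 in limma. Among all genes detected in temporal, 8.31% were at least 2-fold lower on the array labelled knockout and 8.58% at least 2-fold higher. In nasal the shares were 10.5% each way. In temporal epithelium the integrin partner Itgb1 had levels of 8.64 in wild type and 8.39 on the array labelled knockout, and 0 of the 7 partners and ligands of Itga9 differed at least 2-fold. In nasal 2 of the 6 detected were at least 2-fold lower and 0 higher. These were Fn1 with -1.72 and Npnt, at least 4.17-fold lower. The reticulons Rtn3 and Rtn4 had temporal differences of -0.31 and -0.13, the scaffolds Iqgap1 and Iqgap3 0.79 and 0.27, the kinase Lmtk2 -0.73 and the Mia relative Mia3 -0.20. None of these temporal differences reached 2-fold, whereas those of their relatives among the 9 did by choice.

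Of the Cdc42 group, Rhov was 1.29 higher on the temporal array labelled knockout, Rhou 1.00 higher at just under 2-fold, and Rhoq and Cdc42 had -0.32 and 0.07. The F-spondin relative Spon2, a secreted protein of the same domain family, had 1.51 in temporal, the 1 gene of 3 detected that was at least 2-fold higher, and 1.67 in nasal. In nasal 2 of 4 detected relatives were at least 2-fold higher, Spon2 and Thbs2 (2.10), and 0 lower. Of the NADPH oxidase genes, 13 of 15 were on the array and 5 besides Noxo1 were tested. In temporal 1 of the 5 was at least 2-fold lower by its normalized values on the array labelled knockout, the oxidase Nox4 with -1.08, and 0 were higher. Nox4 was not detected on that array, so its fold is a bound, at least 1.82-fold lower. In nasal 1 was lower, Cyba, the membrane subunit shared by several oxidases, with -1.20, and 1 was higher, the cytosolic subunit Ncf4 with 1.08. Duox1 had -0.42 in temporal and 0.79 in nasal, and the GTPase Rac1 0.32 and -0.33. The median over the 5 was -0.42 in temporal and 0.07 in nasal.

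Of 11 other pseudouridine synthases tested, 10 were detected on a temporal array, and 3 of these were at least 2-fold lower and 2 at least 2-fold higher on the array labelled knockout. The shares over all genes detected in temporal were 8.31% and 8.58%. The lowest of the 10 was Dkc1, the synthase of box H/ACA ribonucleoprotein particles, which modify ribosomal RNA. It had a level of 7.81 on wild-type temporal, 5.02 on the temporal array labelled knockout and 6.71 to 7.21 on the nasal and dorsal arrays. Like Trub2, it was low on the temporal array labelled knockout alone. Pus3 (-1.14) and Pus10 (-1.05) were the other 2 lower, and Pus1 (1.42) and Pusl1 (1.15) the 2 higher.

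The 9 genes shared a profile to differing degrees. The Pearson correlation of a gene's 6 levels with the mean of the other 8 was taken over 6 arrays that are not independent. It was 0.96 for Mia and for Rhoj, 0.94 for Itga9, 0.91 for Rtn1, 0.68 for Spon1 and lowest, at 0.55, for Trub2. The choice of the genes on the temporal arrays enters these correlations. Among 1192 other genes whose highest and lowest array differed by at least 2 log2 units, the 5 with profiles most like the mean of the 9 (r from 0.95 to 0.98, n = 6 arrays) were Shisa2, Cyp7b1, Smpdl3b, Sox10 and Nrcam. Shisa2 acts on the maturation of Wnt and FGF receptors, Cyp7b1 hydroxylates oxysterols, Smpdl3b is a sphingomyelinase-like protein, Sox10 is a factor of the gland bud and of neural crest glia, and Nrcam is a cell adhesion molecule of neurons.

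Shisa2 had levels of 6.68, 5.38 and 4.64 on the wild-type temporal, nasal and dorsal arrays and 4.27, 4.23 and 4.51 on those labelled knockout. Sox10 had 8.36, 5.87 and 4.53 in wild type and 4.18, 4.66 and 4.31 on the arrays labelled knockout. Both followed the order of Rhoj in wild type, temporal above nasal above dorsal. Smpdl3b had 6.84 on wild-type temporal and 4.15 on the temporal array labelled knockout, and Nrcam 6.66 and 4.27. The lowest detected level on the temporal array labelled knockout was 4.53, so Shisa2, Sox10, Smpdl3b and Nrcam were not detected there. Cyp7b1 was detected on 5 of the 6 arrays, Shisa2, Smpdl3b and Sox10 on 4 and Nrcam on 2, so much of each profile is background level. Of the 1192 genes, 21 (1.76%) had r above 0.9, and the likeness is a description over 6 values dominated by the wild-type temporal array.

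**Figure D4:**
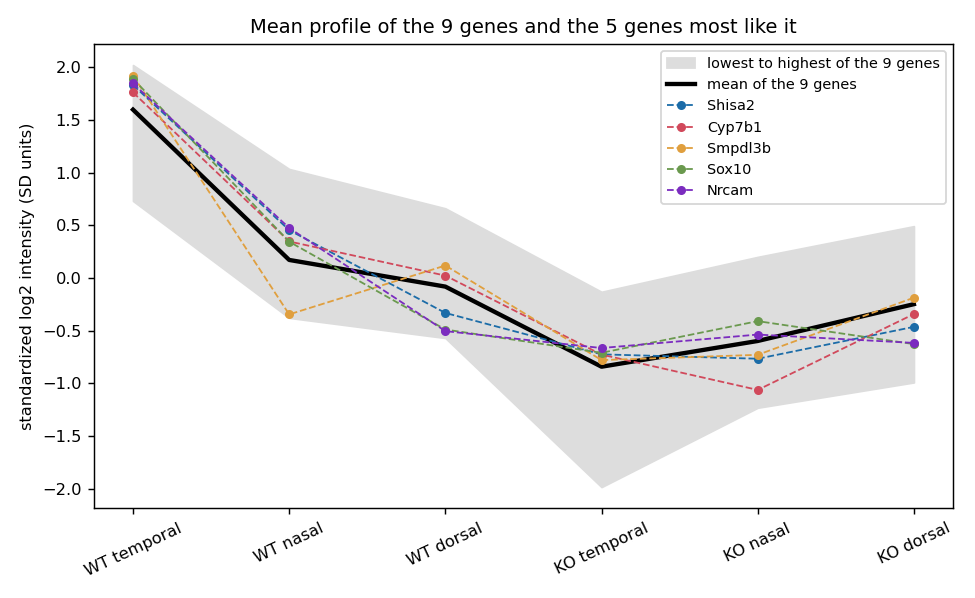
Levels standardized within each gene to SD units (vertical axis) over the 6 arrays (horizontal axis), with the mean of the 9 genes as a black line, their range shaded, and the 5 genes most like the mean as dashed lines. The mean is highest on wild-type temporal at 1.60 and lowest on the temporal array labelled knockout at -0.84, and the range is widest on the latter, where Trub2 reached -1.98.

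Several of the 9 genes are known from other cell types, and markers of those types were read on the same arrays. In such bulk tissue fewer cells of a type and less RNA per cell cannot be told apart. Cartilage markers, beside Mia, had 5 of 13 detected on wild-type temporal, 5 on wild-type nasal, 7 on wild-type dorsal and 4 on each array labelled knockout. Their summed normalized intensity was 1982 on wild-type temporal, 354.2 and 158.5 on wild-type nasal and dorsal, and 73.8 to 169.5 on the arrays labelled knockout. That order follows the profile of Mia, and Matn1, Matn3, Comp and Snorc were not detected on any array. Col2a1 and Col9a1, at log2 levels of 10.04 and 9.51, gave most of the sum on wild-type temporal. Of the 7 tested genes of the list, 4 collagens (Col2a1, Col9a1, Col9a2 and Col9a3) were at least 2-fold lower on the temporal array labelled knockout and 0 were higher. The shares over all genes detected in temporal were 8.31% and 8.58%. Col11a1 had 0.01, and Acan and Hapln1, which were not detected on wild-type temporal, had 0.31 and 0.52. The part of these cells in the result for Mia was not tested.

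Schwann cell and neural crest markers, which include Sox10, had 6 of 10 detected on wild-type temporal and 5 to 7 on the other arrays. Their summed intensity was 811.7 on wild-type temporal, 202.8 and 166.0 on wild-type nasal and dorsal, and 116.6, 428.2 and 197.9 on the temporal, nasal and dorsal arrays labelled knockout. S100b and Cdh19 were not detected on any array. Erbb3 and Fabp7, receptor and lipid-binding protein of glial precursors, had temporal differences of -2.44 and -2.29, and in nasal 2.21 and -1.90. Of the 7 tested genes of the list 5 were at least 2-fold lower on the temporal array labelled knockout and 0 higher. The shares over all genes detected in temporal were 8.31% and 8.58%. Foxd3 and Egfl8 went the other way in temporal, with 0.65 and 0.80, and Egfl8 was not detected on wild-type temporal. The part of this list in the result for the 9 genes was not tested.

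Neuronal markers, beside Rtn1 and Aatk, had 2 to 4 of 12 detected on an array and a summed intensity of 98.4 to 164.9, highest on wild-type temporal. Tubb3, Stmn2, Elavl4, Snap25, Nefl, Dcx and Ina were not detected on any array. Stmn3 and Nefm were detected on wild-type temporal alone, Syt1 on the nasal array labelled knockout alone. Elavl3 and Map2 were detected on all 6 and were the 2 tested. Map2 was at least 2-fold lower on the temporal array labelled knockout (-1.02), as were 8.31% of all genes detected in temporal, and Elavl3 had 0.15. The part of these cells in the results for Rtn1 and Aatk was not tested. Endothelial markers, beside Rhoj, had 0 to 2 of 12 detected, with sums from 34.1 to 81.7. Pecam1, Cdh5, Kdr, Tek, Emcn, Eng and Sox17 were not detected on any of the 6 arrays, including the wild-type temporal array on which Rhoj was bright. Esam and Egfl7 were detected on wild-type temporal, Esam on that array alone. The endothelial sum on wild-type temporal was 58.7, against 54.6 on the temporal array labelled knockout. Both are near background, as the sum was 34.1 on the dorsal array labelled knockout with 0 of 12 detected. The part of these cells in the result for Rhoj was not tested.

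Markers of the surrounding mesenchyme ran the other way, with the lowest sum of the 6 arrays on wild-type temporal (728.6) and 879.7 to 1360 elsewhere. Macrophage markers likewise were lowest there, at 38.2 with 1 of 10 detected, against 48.2 to 266.9 on the other arrays. Epithelial markers summed to 7714 on wild-type temporal and 8218 to 9122 elsewhere. In temporal 0 of the 9 detected were at least 2-fold lower on the array labelled knockout and 1 was higher, Krt14, a keratin of basal cells, with 1.80. Of all genes detected in temporal, 8.31% were at least 2-fold lower and 8.58% at least 2-fold higher. The other markers went both ways. Epcam had -0.99, Krt8 -0.29, Krt18 -0.28 and Cdh1 -0.25, while Krt5 had 0.82, Krt15 0.59, Pax6 0.46 and Trp63 0.17. The median over the tested genes of the list was 0.02.

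The gland bud list had 13 of 14 genes detected on wild-type temporal and 8 to 11 on the other arrays. Its summed intensity was 7110.5, 4375.7 and 6712.2 on the wild-type temporal, nasal and dorsal arrays. On those labelled knockout it was 6354, 5409.8 and 4802.4. The sum on wild-type dorsal was thus near that on wild-type temporal, and wild-type nasal had the lowest of all arrays. In temporal 6 of the 12 tested were at least 2-fold lower on the array labelled knockout and 0 higher, and in nasal 3 were lower and 2 higher. Over all genes 8.31% were lower and 8.58% higher in temporal, and 10.5% each way in nasal. Runx1, among the 6, was not detected on the temporal array labelled knockout, and its bound was 1.79-fold. Of the list, Hs3st3b1, which adds sulfate to heparan sulfate, read 9.53, 8.34 and 5.50 on the wild-type temporal, nasal and dorsal arrays and 5.17, 7.23 and 6.23 on those labelled knockout. Fgfr2, the FGF receptor of the bud, and Barx2, a homeobox factor, had temporal differences of 0.19 and 0.31. The list shares Sox10 with the glial list, and the lists were chosen with earlier results of these data known.

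**Figure D5:**
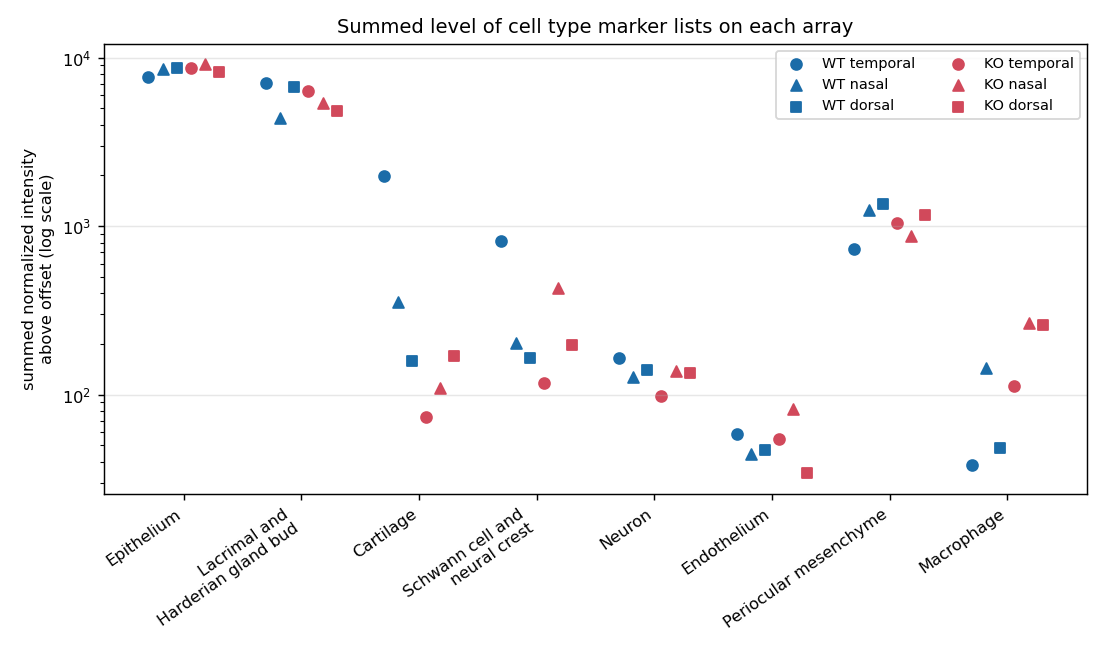
Summed normalized intensity above the offset (vertical axis, log scale) of 8 cell type marker lists (horizontal axis) on each array, with wild type in blue, labelled knockout in red and a symbol for each region. The cartilage list runs from 1982 on wild-type temporal to 73.8 on the temporal array labelled knockout, and the glial list is also highest on wild-type temporal, while the mesenchyme and macrophage lists are lowest there.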

How the data were processed

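The authors' deposited table gave, per the file headers, for each probe and array a mean signal intensity, its standard error over beads, a count of beads and a detection p-value against negative controls. The submitters' processing notes list GenomeStudio, with no version given. A second deposited table held processed intensity values of unstated normalization. Their medians were 4.24 to 4.25, each array had 10700 to 10714 values below 0, and each column had the same rank order as the signals of its own array (Spearman correlation 1), so the direction is the same. They reach values too high for logarithms, such as 1139.9 for Itga9, while the exact scale and any centring stay unknown. Entries without a probe identifier (1315) were not used.

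Signals were background-corrected with limma 3.58.1 in R 4.3.3 (normexp with parameters from the detection p-values, offset 16), quantile-normalized and taken to log2. The offset is part of every fold given, which makes folds of dim genes too small. A probe was detected at a detection p-value under 0.05. The brightest probe detected on at least 2 arrays stood for its gene, by the platform annotation's symbols updated to GRCm38.p6 gene names. Where the dimmer array did not detect a probe, the fold is a bound: the bright array against the higher of the dim value and the lowest detected value on that array. Bead SE was carried through each array's own signal-to-log2 curve and covers measurement on the array only. Arrays were few, which limits the precision.

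The test was a limma model (lmFit, eBayes) across all genes, with terms for genotype and region, on the 4 nasal and dorsal arrays (1 residual degree of freedom), Benjamini-Hochberg adjusted. It was tested on simulated data. The members and lists were chosen with earlier results of these data known. Other named genes were the 5 most alike, the family lists and the markers. Alternatives changed the offset, background correction, scaling, filter, probe rule, model terms, variance trend, arrays and input table. Promoters are RefSeq's.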

Additional observations from a re-analysis of the deposited data

How the results depend on the processing

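The genotype test over nasal and dorsal and the nasal against dorsal test called 0 genes in limma under each of the 10 alternatives, and the smallest adjusted p over all genes was 0.344 for genotype and 0.088 for region, both with an intensity trend. In the 9 alternatives without the temporal arrays the genotype difference ranged from -3.25 to -1.16 for Noxo1, -1.56 to -0.54 for Aatk, -1.87 to -0.47 for Rhoj and -1.55 to -0.63 for Iqgap2. The number at least 2-fold lower was 2 in nasal without background correction, and 0 in dorsal with offset 50, without background correction and with the mean of probes, since smaller folds follow from the larger base or from averaging dim probes. All 9 stayed highest on wild-type temporal and at least 2-fold lower in temporal in the 7 alternatives that apply, but the sizes moved: the temporal difference ranged from -4.92 to -2.20 for Mia, -3.16 to -2.58 for Itga9, -5.38 to -2.60 for Rhoj, -3.34 to -1.16 for Rtn1, -2.97 to -1.53 for Spon1, -4.71 to -2.07 for Noxo1, -5.27 to -2.32 for Trub2, -3.79 to -2.18 for Aatk and -4.87 to -1.53 for Iqgap2. Without a detection filter 19057 genes were tested and 1056 (genotype) and 1335 (region) had an unadjusted p under 0.05.

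For genotype, median scaling gave Itga9 0.15 and Trub2 0.16, where the median of all genes was 0.16, so that relative to it both stayed at -0.01. Other small values changed sign, and the cause was not tested. For genotype, all 6 arrays gave Spon1 -0.77 (the temporal arrays that chose it enter there), and dorsal alone gave Mia 0.46, Itga9 0.27, Trub2 0.24 and Spon1 -0.53. For nasal minus dorsal, Mia had -0.10 with median scaling, -0.12 with the mean of probes and -0.0717 with the authors' processed values, and the mean of probes gave Itga9 0.064 and Rtn1 -0.0367. Arrays labelled knockout alone gave Mia -0.67, Rhoj -0.0292, Rtn1 -0.12 and Noxo1 -0.37, and wild type alone gave Itga9 0.13, Trub2 0.10 and Iqgap2 0.70.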
